A study of Mus musculus with 6 samples.

Results

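The genes described here encode the machinery with which a nerve terminal stores, releases and retrieves synaptic vesicles. They are 49 mouse genes, taken by symbol from the 24411 genes of the count table. By role they were 13 vesicle genes, 7 genes of the SNARE machinery, 11 synaptotagmin, complexin and Doc2 genes, 13 active zone genes, 3 endocytosis genes and 2 neurexin genes. All 49 symbols were found and all are annotated as protein coding. A filter on low counts kept 48 of them, and Cplx3 was left out with 1 to 6 counts per library.

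RNA was sequenced from primary cortical neuron cultures of embryonic day 18 mice, in 6 libraries. The study compared 3 cultures that received PBS, the vehicle, with 3 that received PFF. PFF stands for preformed fibrils of mouse α-synuclein, which the neurons received at 3.45 µM from day 10 in culture until RNA extraction on day 18, for 8 days. The sources used here give neither the strain, genotype and sex of the mice nor the day on which PBS was added. The cells were seeded in medium with serum and came from dissociated cortex with no sort, so each library is bulk RNA of neurons with other brain cells. The labels do not say whether replicates were separate dissections, so p-values reflect only how these samples vary, and that variation may be technical.

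α-Synuclein is itself a presynaptic protein that binds vesicle membranes. In a terminal, vesicles are loaded with transmitter by transporters, clustered in a reserve pool by synapsins, and brought to the active zone, a protein scaffold built of RIM, RIM-binding, ELKS, liprin-α, Bassoon and Piccolo proteins. Munc13 proteins then prime them. Fusion is carried out by SNARE proteins, which zip the vesicle and plasma membranes together, is held ready by complexins, and is triggered when calcium binds a synaptotagmin. Dynamin, amphiphysin and endophilin take the membrane back in. In cortical cultures most terminals are glutamatergic, and vesicles of such terminals carry the transporters VGLUT1 (Slc17a7) or VGLUT2 (Slc17a6).

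Library totals ran from 9224974 to 10742383 estimated counts, and the 49 genes took 1.22% to 1.45% of them. Levels are given as CPM, counts per 1000000 after scaling by the trimmed mean of M values, with mean ± SD over n = 3 libraries per group. Fold changes are log2 values of PFF over PBS ± standard error from edgeR's quasi-likelihood test, and a gene is called where its Benjamini-Hochberg adjusted p over all 13919 tested genes was under 0.05. Replicate 3 of both groups stood apart from replicates 1 and 2 on the second principal component, which held 18.3% of the variance. The labels name no batch, so this split comes from the values alone, and results are also given for replicates 1 and 2 only. In a bulk sample, fewer cells of a type and less RNA per cell cannot be told apart.

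Neuronal genes were present in every library, with Tubb3 at 329 to 463 CPM and Map2 at 1292 to 1669 CPM. Of 14 tested pan-neuronal markers 1 (Elavl2) was higher, with a list median of 0.01 on the log2 scale. Of 8 excitatory neuron markers 1 (Tbr1, 0.39 ± 0.10) was higher, with 5 positive and 3 negative estimates. Their summed level was 2430 to 2439 CPM in PBS and lower, at 2078 to 2361 CPM, in PFF. Camk2a, the most abundant of them, was lower in every PFF library but not called (-0.26 ± 0.09, edgeR adjusted p = 0.0965). Of 13 GABAergic markers 3 (Sst, Npy, Vip) were lower, with 7 positive and 6 negative estimates and a median of 0.07. The summed levels of the GABAergic markers overlapped (920 to 1005 CPM in PBS, 888 to 964 CPM in PFF). Microglia markers moved with the treatment. Of 14 tested, 13 were higher in PFF, with a median of 1.39 and a summed level of 170 to 282 CPM in PBS against 540 to 666 CPM in PFF. P2ry12, a defining marker, stayed near 1 CPM and Tmem119 was not tested at 2 to 6 counts per library. Of 11 astrocyte markers 3 were lower, with summed levels that overlapped (4546 to 5941 CPM in PBS, 4526 to 5610 CPM in PFF), and of 14 oligodendrocyte lineage markers 5 were higher and 8 lower. Their part in the results below was not tested.

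Of the 48 tested presynaptic genes, 3 rose with PFF (Slc17a6, Syt4 and Syt1) and 1 fell (Cplx2). That is 4 of 48, or 8.33%, where 6.58% of all tested genes were called (3.98% higher and 2.60% lower). At this threshold the share of presynaptic genes called was therefore near that of all genes. At an unadjusted edgeR p under 0.05, 13 of the 48 were higher and 3 lower. Of all tested genes 10.6% were higher and 10.5% lower by that measure. The median log2 fold change was 0.07 over the 48 genes, with a range of -0.49 to 0.56, against -0.00 over all tested genes. The estimate was positive for 29 of 48 (60.4%), and for 49.9% of all tested genes. In 9 genes the 3 PFF libraries all lay above the 3 PBS libraries, as did 13.4% of all tested genes, and in 3 they all lay below, as did 11.6% of all tested genes. The 95% interval lay inside 1.5-fold in both directions for 43 of the 48 genes, so larger changes were outside the interval for most of the machinery.

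**Figure D1:**
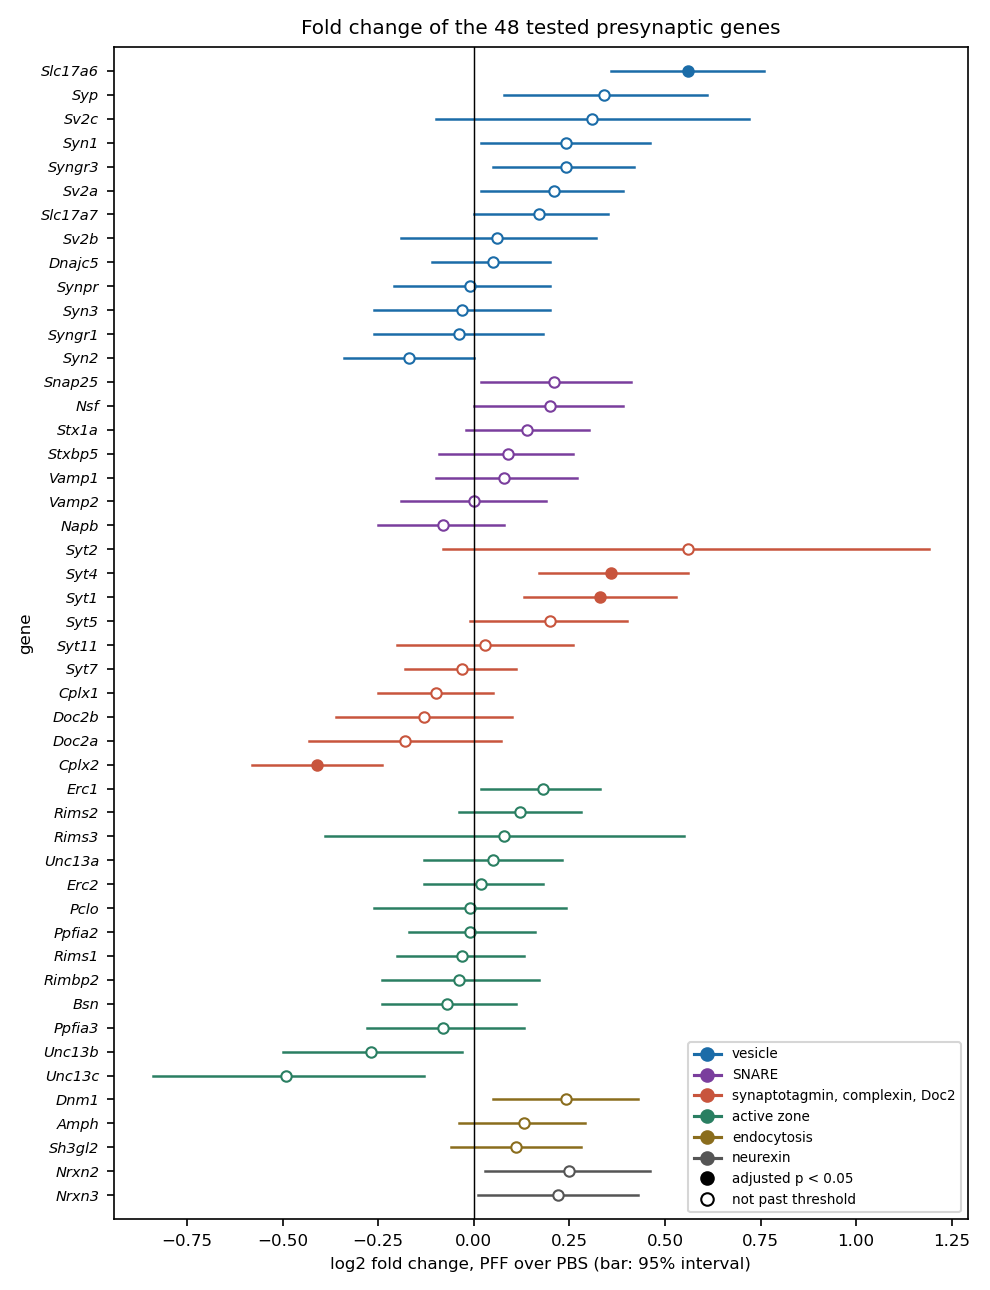
Log2 fold change of PFF over PBS for the 48 tested presynaptic genes (horizontal axis), grouped by role (colour), with the 95% interval as a bar and filled points for an adjusted p under 0.05. The 4 filled points are Slc17a6 at 0.56, Syt4 at 0.36, Syt1 at 0.33 and Cplx2 at -0.41.

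CPM grows with transcript length, so levels are also given per length. The length used was the exonic bases annotated for the gene. It was not the length of the transcript expressed, since counts are per gene. The order below therefore depends on the annotation as well. Snap25 has 6791 exonic bases and Cplx1 has 2189. In PBS, Snap25 was above Cplx1 in CPM (734 against 298) and below it in CPM per kb (108 against 136). Per kilobase of exon in the GENCODE annotation, Vamp2, the vesicle SNARE, was highest in PBS at 359 ± 27.2 CPM per kb. Syt11 followed at 151 ± 21.1, Cplx1 at 136 ± 3.81, Syp at 132 ± 23.0 and Syn1 at 122 ± 11.5 CPM per kb. Neighbours among these 4 did not differ beyond their SDs, while Vamp2 lay above them in every library. The called genes were spread over this order. On the same per-length scale in PBS, Syt4 stood at 105 ± 10.4, Cplx2 at 89.0 ± 5.45, Syt1 at 55.6 ± 4.59 and Slc17a6 at 7.80 ± 0.577 CPM per kb. The lowest were Sv2c at 0.685, Rims3 at 0.460, Syt2 at 0.195 and Cplx3 at 0.106 CPM per kb.

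**Figure D2:**
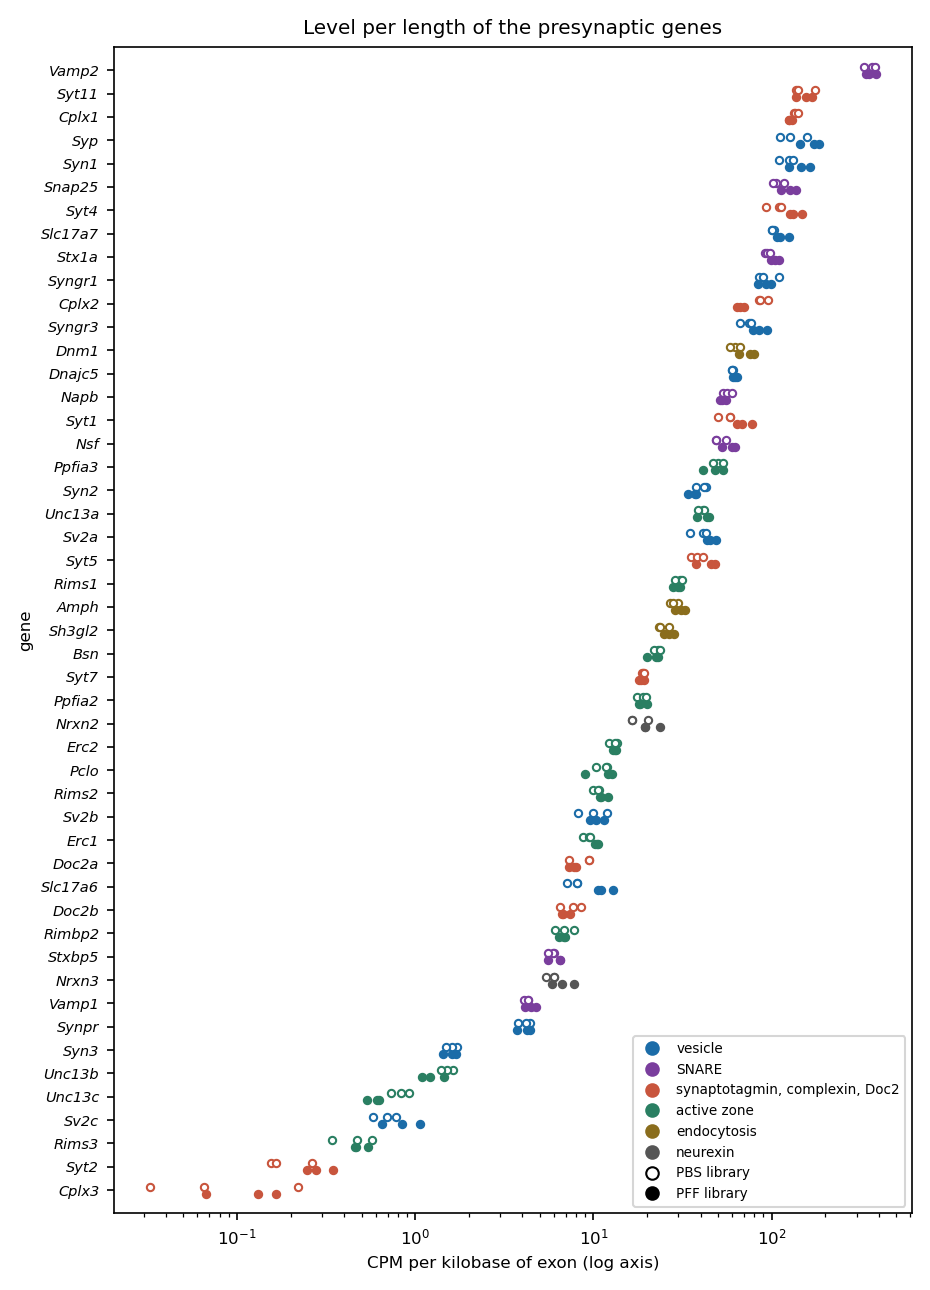
Level of each of the 49 genes in CPM per kilobase of exon (log axis), with 1 point per library, open for PBS and filled for PFF, and colour for role. Vamp2 is at the top at 359 CPM per kb in PBS and Cplx3 at the bottom at 0.106, and for most genes the open and filled points overlap.

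The vesicle genes gave 1 call among 13, where 6.58% of all tested genes were called, with a median of 0.17. At an unadjusted edgeR p under 0.05, 5 of the 13 were higher and 0 lower, against 10.6% and 10.5% of all tested genes. Slc17a6 (VGLUT2) loads glutamate into vesicles and is the main such transporter of many subcortical neurons and of young cortical ones. It lies at chr7:51622006-51671119 on the plus strand (GRCm38). Its level was 38.5, 43.9 and 43.9 CPM in PBS and 57.4, 69.2 and 59.5 CPM in PFF. All 3 PFF libraries were above all 3 PBS libraries, and the mean went from 42.1 ± 3.08 to 62.1 ± 6.29 CPM (1.47-fold, 0.56 ± 0.09, edgeR adjusted p = 0.00246).

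Slc17a7 (VGLUT1), the main glutamate transporter of mature cortical vesicles, had the higher level of the pair. It measured 541, 559 and 540 CPM in PBS and 577, 674 and 599 CPM in PFF. The groups did not overlap, but the test was not passed (0.17 ± 0.08, edgeR adjusted p = 0.237). Within a library, counts of Slc17a6 were 7.13%, 7.85% and 8.13% of those of Slc17a7 in PBS and 9.95%, 10.3% and 9.94% in PFF. The ratio was thus higher in every PFF library. The exact permutation test over 3 against 3 libraries, two-sided, gave p = 0.1, the smallest this design allows. The adjusted value over the 4 ratios examined here, all chosen with the fold changes known, was also 0.1.

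Among the vesicle membrane proteins, Syp (synaptophysin), the most used marker of vesicles, had the largest uncalled fold change among the members with over 10 CPM. It measured 581, 664 and 818 CPM in PBS and 751, 963 and 905 CPM in PFF. The groups overlapped through PBS replicate 3, and the fold change was 0.34 ± 0.12 (edgeR adjusted p = 0.122). With each library left out in turn it ran from 0.23 without PBS replicate 1 (edgeR adjusted p = 0.408) to 0.49 without PBS replicate 3 (edgeR adjusted p = 0.0211), and it was 0.27 without PFF replicate 2 (edgeR adjusted p = 0.425). Only the fit without PBS replicate 3 passed the test among these 6. Of the exonic bases of Syp 16.8% overlap a gene on the opposite strand, and the strand setting of the counting is not known. Syngr3 (synaptogyrin), a relative of synaptophysin, had PFF libraries at 162 to 195 CPM above PBS libraries at 138 to 160 CPM (0.24 ± 0.09, edgeR adjusted p = 0.126). Its paralog Syngr1 (-0.04 ± 0.10) and Synpr (synaptoporin, -0.01 ± 0.10) had estimates near 0 and overlapping groups.

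The SV2 glycoproteins sit in vesicle membranes and help make vesicles ready for release. Sv2a, which is also the binding site of the drug levetiracetam, did not overlap between groups, with 162 to 198 CPM in PBS and 200 to 226 CPM in PFF (0.21 ± 0.09, edgeR adjusted p = 0.187). Sv2b (0.06 ± 0.12) and the scarce Sv2c (0.31 ± 0.19, 5.63 to 10.3 CPM) overlapped.

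The synapsins tether vesicles in the reserve pool. Their estimates differed in sign, and none passed the test. Syn1 measured 414, 435 and 361 CPM in PBS and 479, 539 and 414 CPM in PFF (0.24 ± 0.10, edgeR adjusted p = 0.188). Syn2 measured 263, 302 and 292 CPM in PBS and 261, 265 and 238 CPM in PFF (-0.17 ± 0.08, edgeR adjusted p = 0.249). Syn3, at 17.7 to 21.2 CPM, had a fold change of -0.03 ± 0.11. Dnajc5 (cysteine string protein), a vesicle chaperone that keeps SNAP-25 folded, varied little, with 418 to 446 CPM over all 6 libraries and 0.05 ± 0.07.

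Synaptotagmins, complexins and Doc2 proteins regulate fusion. Of 10 tested genes of this class 3 were called (2 higher, 1 lower, median -0.00), where 6.58% of all tested genes were. Among 7 tested genes of the same class that are not members, 0 were called. Syt1 is the calcium sensor of fast, synchronous release in forebrain neurons. It lies at chr10:108497650-109010982 on the minus strand. Its level was 419, 485 and 486 CPM in PBS and 572, 646 and 530 CPM in PFF. The lowest PFF library lay above the highest PBS library, with 463 ± 38.3 against 583 ± 58.7 CPM (1.26-fold, 0.33 ± 0.09, edgeR adjusted p = 0.0489).

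The Syt1 call stood just inside the threshold. It was lost with DESeq2 size factors (edgeR adjusted p = 0.0535) and without PBS replicate 1 (0.243), PBS replicate 2 (0.097), PBS replicate 3 (0.0591), PFF replicate 1 (0.103) or PFF replicate 2 (0.274), all as edgeR adjusted p. The fold change stayed between 0.25 and 0.43 in these and all other alternatives run. In replicates 1 and 2 only it was 0.43 ± 0.08 (edgeR adjusted p = 0.000433), and in replicate 3 alone the 2 libraries differed by 0.13.

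Syt4, which does not bind calcium the way Syt1 does and is found on dense-core and other transport vesicles, also rose. It measured 364, 429 and 438 CPM in PBS and 496, 575 and 512 CPM in PFF, again with no overlap. The mean went from 410 ± 40.4 to 528 ± 41.9 CPM (1.29-fold, 0.36 ± 0.09, edgeR adjusted p = 0.0306). The call was lost without PBS replicate 1 (0.17), PBS replicate 2 (0.066) or PFF replicate 2 (0.184), as edgeR adjusted p. Of its exonic bases 14.5% overlap a gene on the opposite strand, and the strand setting of the counting is not given in the sources used here.

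The other synaptotagmins did not pass the test. Syt7, a slow calcium sensor of asynchronous release, was 141 to 145 CPM in PBS and 135 to 143 CPM in PFF (-0.03 ± 0.07, 95% interval -0.18 to 0.11). Counts of Syt1 were 297%, 342% and 336% of those of Syt7 in PBS and 423%, 451% and 381% in PFF, with no overlap. The exact permutation p, two-sided, was again 0.1. Syt11, a member of the family that does not bind calcium, was the most abundant synaptotagmin and had an estimate of 0.03 ± 0.11. Syt5 measured 84.1 to 98.2 CPM in PBS and 89.6 to 114 CPM in PFF (0.20 ± 0.10, edgeR adjusted p = 0.255). Syt2, the fast sensor of hindbrain and some inhibitory terminals, was near the detection limit at 1.19 to 2.64 CPM, and its interval of -0.08 to 1.19 was the widest of the 48.

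Complexins bind assembled SNARE complexes, where they both hold back and promote fusion. Cplx2 was the only called gene among the 48 that fell. It lies at chr13:54371349-54383917 on the plus strand. It measured 420, 426 and 469 CPM in PBS and 317, 344 and 328 CPM in PFF. Every PFF library was below every PBS library, with 439 ± 26.8 against 330 ± 13.5 CPM (0.752-fold, -0.41 ± 0.08, edgeR adjusted p = 0.00544).

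Cplx1, its close paralog, was also lower in every PFF library but did not pass the test, with 291, 295 and 307 CPM in PBS and 275, 283 and 273 CPM in PFF (-0.10 ± 0.07, edgeR adjusted p = 0.44). The Cplx2 count was 144%, 144% and 153% of the Cplx1 count in PBS and 115%, 121% and 120% in PFF, so the ratio of the pair shifted in every library (exact permutation, two-sided, p = 0.1). Cplx3, a complexin of retina and of deep cortical cells, gave 1 to 6 counts per library and was not tested. Doc2a (-0.18 ± 0.11) and Doc2b (-0.13 ± 0.11), calcium sensors linked to spontaneous release, overlapped between groups. For Doc2a 39.4% of exonic bases overlap a gene on the opposite strand.

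**Figure D3:**
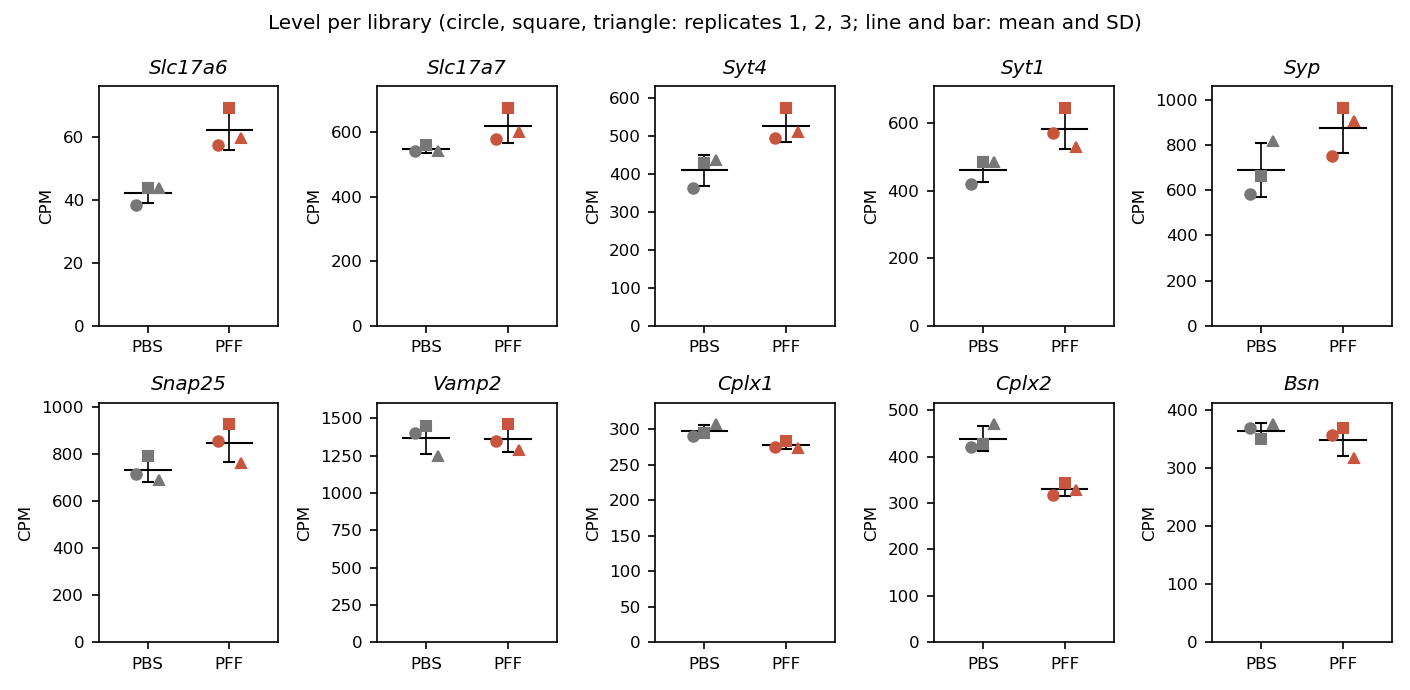
CPM in each library for 10 of the genes, with circle, square and triangle for replicates 1, 2 and 3, and mean and SD as line and bar (n = 3, axes from 0). The groups do not overlap for Slc17a6, Slc17a7, Syt4, Syt1, Cplx1 and Cplx2, and overlap for Syp, Snap25, Vamp2 and Bsn.

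None of the 7 SNARE genes was called, where 6.58% of all tested genes were, and their median was 0.09. At an unadjusted edgeR p under 0.05, 2 of the 7 were higher (Snap25, Nsf) and 0 lower, where 10.6% of all tested genes were higher and 10.5% lower. Vamp2 (synaptobrevin), the vesicle SNARE, was 1251 to 1450 CPM in PBS and 1287 to 1461 CPM in PFF (-0.00 ± 0.09, 95% interval -0.19 to 0.19). Snap25, its plasma membrane partner, measured 718, 792 and 692 CPM in PBS and 859, 928 and 764 CPM in PFF (0.21 ± 0.09, edgeR adjusted p = 0.199). Its groups overlapped only through PBS replicate 2 and PFF replicate 3. Within a library the Snap25 count was 51.2% to 55.3% of the Vamp2 count in PBS and 59.4% to 63.8% in PFF (exact permutation, two-sided, p = 0.1).

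**Figure D4:**
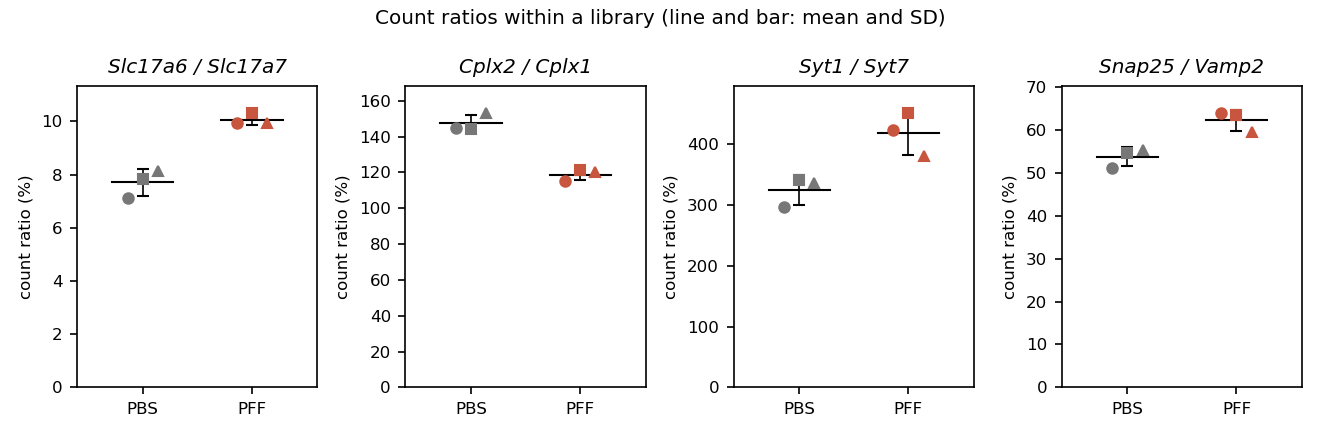
Count of 1 gene as a percentage of the count of another gene in the same library, for 4 pairs, with circle, square and triangle for replicates 1, 2 and 3 and mean and SD as line and bar (n = 3). Slc17a6 against Slc17a7, Syt1 against Syt7 and Snap25 against Vamp2 were higher in all 3 PFF libraries, and Cplx2 against Cplx1 was lower in all 3.

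Stx1a (syntaxin), the remaining core SNARE, was 246 to 261 CPM in PBS and 265 to 294 CPM in PFF, with no overlap and no call (0.14 ± 0.07, edgeR adjusted p = 0.286). Nsf, the ATPase that takes SNARE complexes apart after fusion, had 0.20 ± 0.09 (edgeR adjusted p = 0.226), and its adaptor Napb had -0.08 ± 0.08. Vamp1 (0.08 ± 0.08) and Stxbp5 (tomosyn, an inhibitor of SNARE assembly, 0.09 ± 0.08) also overlapped.

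The active zone genes gave 0 calls among 13 by edgeR, and also 0 by DESeq2 and 0 by limma-voom, with a median of -0.01. By edgeR 6.58% of all tested genes were called, and 13 genes are too few to tell 0 calls from that share. At an unadjusted edgeR p under 0.05 1 of the 13 was higher (Erc1) and 2 were lower (Unc13b, Unc13c), against 10.6% and 10.5% of all tested genes. The summed level of the class was 2424 to 2451 CPM in PBS and 2326 to 2531 CPM in PFF. The giant scaffold genes Bsn (Bassoon, -0.07 ± 0.08) and Pclo (Piccolo, -0.01 ± 0.12) had overlapping groups, with Bsn at 349 to 375 CPM in PBS and 317 to 369 CPM in PFF. The RIM genes, which tie vesicles to calcium channels, had -0.03 ± 0.07 (Rims1), 0.12 ± 0.07 (Rims2) and 0.08 ± 0.22 (Rims3), and Rimbp2 had -0.04 ± 0.09.

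Of the Munc13 priming factors, Unc13a, the main one of cortical glutamatergic terminals, measured 522, 529 and 484 CPM in PBS and 561, 550 and 479 CPM in PFF (0.05 ± 0.08). Its paralogs were scarce and lower in PFF. Unc13b measured 37.0, 34.3 and 31.9 CPM in PBS and 33.0, 27.7 and 24.9 CPM in PFF (-0.27 ± 0.11, edgeR adjusted p = 0.182). Unc13c, the Munc13 of cerebellar granule cells, measured 8.12, 6.41 and 7.31 CPM in PBS and 5.49, 4.70 and 5.34 CPM in PFF, with no overlap (-0.49 ± 0.16, edgeR adjusted p = 0.102). Neither passed the threshold.

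The ELKS gene Erc1 was 143 to 155 CPM in PBS and 166 to 172 CPM in PFF, with no overlap (0.18 ± 0.07, edgeR adjusted p = 0.169), and 11.8% of its exonic bases overlap a gene on the opposite strand. Its neuronal paralog Erc2 had 0.02 ± 0.07, and the liprin-α genes had -0.01 ± 0.08 (Ppfia2) and -0.08 ± 0.10 (Ppfia3).

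The 3 endocytosis genes and the 2 neurexin genes all had positive estimates, and none was called. Of all tested genes 49.9% had a positive estimate and 6.58% were called. At an unadjusted edgeR p under 0.05, 1 endocytosis gene (Dnm1) and the 2 neurexin genes were higher, against 10.6% of all tested genes. Dnm1, the neuronal dynamin that pinches vesicles off, measured 325, 348 and 307 CPM in PBS and 396, 418 and 344 CPM in PFF (0.24 ± 0.09, edgeR adjusted p = 0.132). Amph (amphiphysin) had 0.13 ± 0.08 and Sh3gl2 (endophilin) 0.11 ± 0.08. Neurexins are presynaptic adhesion proteins that organise the release site. Nrxn2 had 0.25 ± 0.10 (edgeR adjusted p = 0.184) and Nrxn3 0.22 ± 0.10 (edgeR adjusted p = 0.22), and the groups overlapped in both. PFF replicates 1 and 3 lay inside the PBS range for Nrxn2, and PFF replicate 3 for Nrxn3.

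Replicate 3 weighed on these counts. In replicates 1 and 2 only (n = 2 per group), 15 of the genes were called higher, where 8.78% of all tested genes were, and 1 lower (Cplx2), where 8.38% were. The 15 were 7 vesicle genes (Slc17a6, Syp, Syn1, Syngr3, Sv2a, Sv2b, Sv2c), Syt1 and Syt4, Snap25 and Nsf, Erc1, Dnm1, and the neurexins Nrxn2 and Nrxn3. Their fold changes there ran from 0.22 (Erc1) to 0.62 (Slc17a6). Between the 2 libraries of replicate 3, 11 of the 15 had the same sign and 4 the opposite sign. Slc17a6 (0.44), Syt4 (0.22), Syn1 (0.20), Dnm1 (0.16), Syp (0.15), Syngr3 (0.15), Snap25 (0.14), Syt1 (0.13), Nsf (0.11), Erc1 (0.10) and Sv2a (0.09) kept it. Sv2b (-0.32), Sv2c (-0.26), Nrxn2 (-0.05) and Nrxn3 (-0.03) did not. The matching share among all genes called higher in replicates 1 and 2 was not computed, so these counts only describe the 15 genes.

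Single PFF and PBS libraries of the same number were also compared, though the labels do not state that they are paired. The difference was positive for 31 of 48 genes in replicate 1 (median 0.10), 36 in replicate 2 (median 0.13) and 22 in replicate 3 (median -0.01). It was positive for 50.4%, 49.6% and 51.5% of all tested genes. Cplx2 was lower in all 3 of these comparisons, with log2 differences of -0.41, -0.31 and -0.52. Without PFF replicate 3 alone, 8 of the genes were higher, with Syn1 (edgeR adjusted p = 0.0191), Snap25 (0.0316), Nsf (0.036), Dnm1 (0.0125) and Nrxn3 (0.0258) added to the 3. Of all tested genes 6.19% were higher in that fit. Without PBS replicate 1, PBS replicate 2 or PFF replicate 2, 1 remained, Slc17a6. Of all tested genes 2.52%, 2.61% and 2.22% were higher in those fits, in that order. With replicate 3 as a batch term there were 7 higher and 2 lower (7.39% and 7.01% of all tested genes), with Unc13b added (-0.27, edgeR adjusted p = 0.0434).

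**Figure D5:**
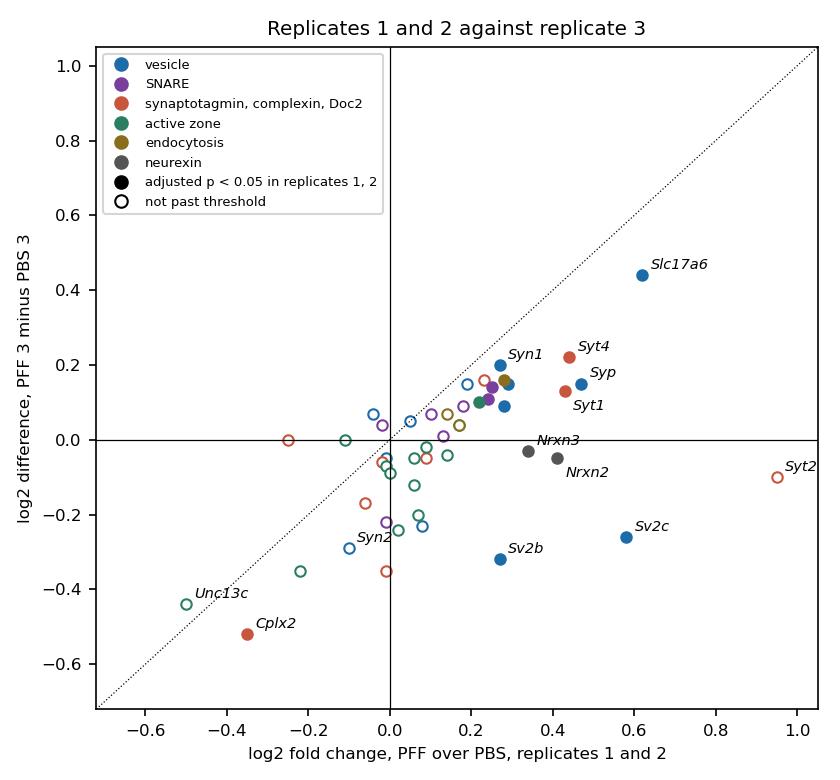
Log2 fold change of PFF over PBS in replicates 1 and 2 (horizontal axis) against the log2 difference between the replicate 3 libraries (vertical axis) for the 48 genes, with colour for role, filled points for an adjusted p under 0.05 in replicates 1 and 2, and a dotted line of equality. Slc17a6 (0.62 and 0.44) and Cplx2 (-0.35 and -0.52) have the same sign on both axes, while Sv2b and Sv2c are positive on the horizontal axis and at -0.32 and -0.26 on the vertical one.

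A further 76 genes of the same machinery were listed, of which 75 were in the table and 72 were tested. They gave 2 higher and 2 lower (5.56% of 72, against 6.58% of all tested genes), with a median of 0.08. Cadps2 (CAPS2), a priming factor of dense-core vesicles, went from 131 ± 11.9 to 184 ± 9.90 CPM (0.49 ± 0.08, edgeR adjusted p = 0.00241) and passed in all 15 alternatives. Cltc, the clathrin heavy chain, was higher (0.29 ± 0.08, edgeR adjusted p = 0.0392). Sh3gl3, an endophilin related to Sh3gl2, was lower at 22.6 ± 4.33 against 33.8 ± 2.58 CPM (-0.58 ± 0.12, edgeR adjusted p = 0.0121), and so was Vamp3 (cellubrevin), a SNARE of most cell types including glia (-0.30 ± 0.08, edgeR adjusted p = 0.0376).

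Of these 4, the Sh3gl3 call was lost without PBS replicate 1 (edgeR adjusted p = 0.0613), PFF replicate 1 (0.0501) or PFF replicate 2 (0.089). Cltc was lost without any library but PFF replicate 3, at 0.17, 0.0859 and 0.091 without PBS replicates 1, 2 and 3 and at 0.116 and 0.208 without PFF replicates 1 and 2. Vamp3 was lost without the same 5 libraries, at 0.125, 0.064, 0.0965, 0.123 and 0.196, and also with library size as the only scaling (0.0581) and with DESeq2 (adjusted p = 0.0557).

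Promoter sequences, 250 bases before to 50 after the start site, were found for 37 of the 49 genes in RefSeq (GRCm38.p6). The 2 called genes that rose and had an entry, Slc17a6 and Syt1, are shown because both rose, and Syn1 because it was the only member promoter with both the left part of the RE1 element and the CRE. Capitals mark a GC box in Slc17a6 and Syt1 and, in Syn1, the left part of the RE1 element followed by the CRE. The Slc17a6 window ends at 51621879, before the start of the GENCODE gene at 51622006, so it covers no base of that gene model.
Slc17a6, chr7:51621580-51621879, plus strand, 1 of 2 starts listed: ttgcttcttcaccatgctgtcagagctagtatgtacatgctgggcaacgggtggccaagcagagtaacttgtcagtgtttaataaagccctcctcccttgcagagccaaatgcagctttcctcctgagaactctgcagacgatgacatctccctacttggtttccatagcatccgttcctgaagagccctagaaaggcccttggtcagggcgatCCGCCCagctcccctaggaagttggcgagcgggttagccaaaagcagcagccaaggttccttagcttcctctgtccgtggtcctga
Syt1, chr10:109010926-109011225, minus strand, 1 of 2 starts listed: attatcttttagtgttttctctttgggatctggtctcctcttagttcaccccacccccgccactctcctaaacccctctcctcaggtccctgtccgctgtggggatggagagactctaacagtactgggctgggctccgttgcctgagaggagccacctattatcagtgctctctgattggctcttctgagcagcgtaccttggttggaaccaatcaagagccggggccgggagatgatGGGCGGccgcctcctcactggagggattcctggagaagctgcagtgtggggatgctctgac
Syn1, chrX:20920869-20921168, minus strand: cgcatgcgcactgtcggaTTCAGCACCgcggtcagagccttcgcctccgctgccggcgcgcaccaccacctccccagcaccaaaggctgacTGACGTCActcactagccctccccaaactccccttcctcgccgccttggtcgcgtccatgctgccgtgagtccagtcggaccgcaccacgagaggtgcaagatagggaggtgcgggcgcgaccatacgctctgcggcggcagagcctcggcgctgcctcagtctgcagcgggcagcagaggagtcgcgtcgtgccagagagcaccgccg

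Motifs were searched on both strands, and shares are over promoters of 10223 tested protein-coding genes of the same length. The GC box, GGGCGG, to which Sp1-type factors bind, was in 29 of 37 promoters (78.4%) and in 69.0% of all. The CRE, TGACGTCA, which reads the same on both strands and is bound by CREB, was in Syn1 and Sh3gl2, 2 of 37 (5.41%), and in 3.66% of all. The EGR1 motif, GCGTGGGCG, was in Unc13a alone, 1 of 37, and in 1.39% of all. The RE1 core, CAGCACC and GGACAG with 2 bases between, to which the neuronal gene repressor REST binds, was in 0 of 37 and in 0.0783% of all. Its left part, TTCAGCACC, which was added after the data were seen, was in Syn1, Unc13a and Ppfia3, 3 of 37 (8.11%), and in 0.577% of all. None of the 3 genes with the RE1 left part was called. These matches describe the letters of these windows only.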

How the data were processed

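The authors deposited estimated counts for each gene in 6 libraries, unscaled, with 8.69% of the values not whole. Libraries were made with a kit that marks the strand, per the labels' protocols. STAR 2.7.9a, Trim Galore 0.6.6, DESeq2 1.38.3 and mm10 are named, with no role, per the submitters' processing notes. The sources used here do not give the counting tool, its annotation or its strand setting, so reads of genes that overlap on opposite strands may have been shared. This applies to 6 of the 49 genes, with over 10% of exonic bases shared (Syn3, Syp, Syt4, Doc2a, Erc1 and Ppfia2).

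Columns were matched to samples by name. Estimated counts were rounded, filtered by edgeR 4.0.16 filterByExpr (10492 of 24411 genes removed), scaled by TMM and tested in R 4.3.3 by edgeR's quasi-likelihood F-test (robust, two-sided, group only), with Benjamini-Hochberg adjustment over 13919 genes at 0.05. The standard error was the log2 fold change divided by the square root of F. Log2 differences between single libraries used a prior count of 2. Lengths and overlaps came from GENCODE M21 (GRCm38, the assembly of mm10), and promoters from RefSeq. Steps were tested on simulated data. The members, the other gene lists and the ratios were chosen with earlier results of these data known. Named genes were all 49 members, the called genes among the others (Tspoap1 is listed there as Bzrap1, and Vamp7 was not matched), and up to 3 genes per marker list. Alternatives covered the scaling, filter, test (DESeq2 1.42.0, limma 3.58.1 voom), removal of Rn45s, replicate 3 as a batch, a replicate block, and each library left out.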

Additional observations from a re-analysis of the deposited data

How the results depend on the processing

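Each count of calls and each fold change of the 48 members and the 4 other called genes was recomputed under 15 alternatives. Slc17a6 and Cplx2 passed in all 15 (largest adjusted p 0.0221 and 0.03), and the losses of the other calls stand beside their values above. Of 780 recomputed fold changes 726 kept their side of the threshold, 24 lost it, 30 gained it and 0 called values changed sign. Among uncalled values 36 changed sign, all with a reported size under 0.1 on the log2 scale.

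All 916 called genes became 1997 with the replicate block, 2005 with replicate 3 as a batch term, 2394 with replicates 1 and 2 only, and 412 to 1858 with each library left out. Of all tested genes, 7.49% were higher with the replicate block and 7.39% with the batch term. With replicates 1 and 2 only 8.78% were higher, and 2.22% to 6.19% with each library left out. The shares lower were 6.85%, 7.01%, 8.38% and 0.711% to 7.01%, in that order. As reported, 3.98% were higher and 2.60% lower. Members called higher, 3 as reported, became 9 with the replicate block, 7 with the batch term, 15 with replicates 1 and 2 only and 1 to 8 with each library left out. Members called lower, 1 as reported, became 2 with the replicate block and 2 with the batch term. The other presynaptic genes called higher, 2 as reported, became 8 with the replicate block, 10 with the batch term, 15 with replicates 1 and 2 only and 1 to 8 with each library left out. Those called lower, 2 as reported, became 3 with the replicate block, 3 with the batch term, 3 with replicates 1 and 2 only, 1 with library size only, 1 with DESeq2 and 0 to 2 with each library left out. The cause of these shifts was not tested.

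Deviations from the group means of same-numbered libraries correlated at 0.09, 0.11 and 0.20. Libraries of different number correlated at 0.13 (PBS replicate 2 with PFF replicate 1), -0.01, -0.03, -0.09, -0.20 and -0.21. Same-numbered libraries thus had the higher values, with that exception. The largest, 0.20, was that of replicate 3, which stood apart as described above. Deviations from a group mean cancel out within the group, so these correlations depend on each other. They do not settle whether the numbers pair the samples. The labels do not state a pairing, so the reported fit used group only. The replicate block is therefore given here only. Genes of few counts, such as Syt2, Sv2c, Rims3 and Unc13c, carry the widest intervals.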
